A study of Rattus norvegicus with 36 samples.

Results

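Naive fibroblasts grown from the vocal fold (VF) were compared with the uninjured VF mucosa from which such cells are taken, to find which genes expressed by the tissue are also expressed by its cultured fibroblasts. The arrays were chosen by their labels, and 11 of the 36 arrays of the series entered the comparison. The 3 culture arrays, replicates 1 to 3, hold primary VF fibroblasts of uninjured Fischer 344 rats, started at an age of 120 days and harvested at 180 days. Each culture was an explant of both mucosae of 1 rat and was collected at passage 1 and 80% confluence in medium with 10% fetal bovine serum. The 8 mucosa arrays hold microdissected VF mucosa of uninjured rats of the same strain, with both mucosae of 4 rats pooled for each array. They form the 3-day, 14-day and 60-day control groups, with 3, 3 and 2 arrays, and the rats were 123, 134 and 180 days old. The replicates of a group come from different animals. Scar fibroblast cultures (4 arrays) from rats injured 60 days before, and mucosa 60 days post-injury (PI, 5 arrays), were used for the same kind of comparison in other arrays. Groups follow the labels, but the methods text gives the 60-day tissue 1 PI array fewer and 1 control array more, so the label of 1 of these 7 arrays is in doubt. Culture and tissue differ at the same time in cell makeup, growth in serum, animals per array and amount of labelled RNA (0.9 against 1.2 µg). The parts of these cannot be told apart. Age differs as well, since among the controls only the 60-day group was 180 days old like the rats of the cultures. The 60-day controls alone were used as an alternative.

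The VF mucosa is a stratified epithelium over a lamina propria of fibroblasts and matrix, beside glands, vessels and muscle. Fibroblasts are mesenchymal cells that make fibrillar collagen and the other fibers and proteoglycans of connective tissue. Tissue that is minced and placed on plastic in serum sends out cells that attach and spread, and fibroblasts placed in this way commonly assemble actin stress fibers. In bulk RNA, fewer cells of a type and less RNA per cell cannot be told apart.

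Values are log2 signals after robust multiarray averaging (RMA), and a difference is the mean of the 3 naive arrays minus the mean of the 8 control arrays. A gene was called at a limma adjusted p under 0.05, and differences of 2 log2 units (4-fold) or more are counted separately. Of 14217 genes tested, 10632 (74.8%) were called. Higher in the cultures were 6360 (44.7%) and lower were 4272 (30%). At least 4-fold higher and called were 388 genes (2.73%), and at least 4-fold lower and called were 1109 (7.8%). The 3 naive arrays lay wholly above or below all 8 control arrays for 9308 genes (65.5%), above them for 39.2% of all genes and below them for 26.3%. Over all genes the median difference was 0.14, and the counts of each gene group below stand beside these shares. Of the called genes, 59.8% were higher, and 70% with the arrays centred on reference genes.

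Pearson's r across genes was 0.989 to 0.993 among the naive arrays, 0.981 to 0.997 among the control arrays and 0.797 to 0.821 between them (genes are not independent replicates). The median SD of a gene was 0.11 in the cultures and 0.14 in the mucosa. Of the 4 bacterial poly-A RNAs added to each reaction, dap and thr gave lower signals at their 5′ ends in the cultures (differences of -1.23 and -1.31 for the 2 probe sets of dap, -0.65 and -0.97 for those of thr). The 5′ probe sets of lys had differences of 0.56 and 0.45, and those of phe of -0.24 and -0.25. The 5′ probe set of dap lay at 8.57 to 8.74 in the cultures and at 9.32 to 10.53 in the mucosa (exact permutation test, two-sided, p = 0.0121, the smallest that 3 against 8 arrays allow, adjusted over 57 control probe sets 0.0383). Its 3′ probe set lay at 11.95 to 12.03 and 11.85 to 12.65 (exact permutation test, p = 0.206). The 3 probe sets of trp, an RNA that is no part of the added mix, lay between 3.13 and 4.01. Those of its 5′ end and middle were higher in the cultures by 0.34 and 0.41, without overlap (exact permutation test, adjusted p = 0.0383 each). That of its 3′ end was higher by 0.14 (adjusted p = 0.129). Whether rises of this size in dim genes exceed such a shift was not tested. The part of labelling in the differences was not tested.

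Prl8a9, a prolactin family member, had signals of 10.48, 10.75 and 10.92 in the 3 cultures and a lowest, median and highest value of 3.36, 3.49 and 3.67 in the mucosa. The groups did not overlap, and the mucosal values lay within the range of the trp probe sets, so that the measured difference of 7.21 stands for a rise of at least 6.71 (105-fold; limma adjusted p = 1.98e-14). Such bounds take each array of the lower group at 4.01, the highest trp value. Col11a1, a minor fibrillar collagen chain, rose by 6.98, Il6, an inflammatory cytokine, by 6.25, and Cdkn2a, whose products halt the cell cycle, by 6.23. Grem1, which binds bone morphogenetic proteins (BMPs), rose by 6.21 and reached 13.90, 14.04 and 13.95. Cemip, needed for the breakdown of hyaluronan, rose by 6.07. Car9, a carbonic anhydrase, rose by 5.60, the neurotrophin Bdnf by 5.58 (1.25 by its other probe set), the transcription factor Fosb by 5.38 and Scd, a fatty acid desaturase, by 5.27. Il1rl1, the interleukin 33 receptor, rose by 5.26 but varied among the cultures (10.30, 9.0 and 11.85), and its other probe set gave 0.43. Itga11, an integrin that binds collagen, rose by 5.02.

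The largest fall was that of Csap1, at 3.09, 3.71 and 3.46 in the cultures and 14.58, 14.60 and 14.62 (lowest, median and highest) in the mucosa. The culture values lay within the range of the trp probe sets, so that the measured difference of -11.18 stands for a fall of at least 10.6 log2 units (limma adjusted p = 5.96e-16). Scgb1a1, the club cell secretoglobin, fell by 9.40, Clca1, a secreted protein of mucous cells, by 9.34, and Pigr, the receptor that carries IgA across epithelium, by 9.09. Lipf, gastric lipase, fell by 9.20 and lay at 14.74 on every control array, the top of the deposited values, so its mucosal level may be understated. A2ml1, Tspan8, Krt19, Chia, Epcam and Bpifa1 fell by 8.03 to 8.91, and Krt18, at the level of the trp probe sets in the cultures, by at least 8.01 log2 units.

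The fibroblast label was checked against 20 genes that mark fibroblasts. Of these, 14 were higher in the cultures, 4 were lower and 2 were not called, and the median difference was 0.87 (all genes, 0.14). Col1a1, the α1 chain of type I collagen, had signals of 14.27, 14.22 and 14.43 in the cultures and 10.51, 11.47 and 11.94 (lowest, median and highest) in the mucosa, and rose by 3.00 (SE 0.27, adjusted p = 6.49e-07, limma). The mucosa of the older rats gave the lowest of these values, with a mean of 10.54 in the 60-day controls against 11.49 and 11.63 in the 3-day and 14-day controls. Thy1, a surface protein of fibroblasts, lay at 13.19, 13.36 and 13.45 against 8.03 to 8.84 in the mucosa (difference 4.98). Prrx1, a transcription factor of mesenchyme, lay at 9.88, 10.21 and 9.97 against 5.38 to 6.83 (4.06). None of the culture values of these 3 genes overlapped the mucosa.

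Other identity genes rose less. Postn, a matricellular protein, rose by 2.19 and Pdgfrb, a receptor of platelet-derived growth factor, by 2.18. The transcription factors Twist2 and Twist1 rose by 1.72 and 1.29, Col1a2 by 1.74, S100a4 by 1.26, and Fap, a surface protease of activated fibroblasts, by 0.97. Col3a1 rose by 0.78 and Lum, a proteoglycan that binds collagen fibrils, by 0.50. The intermediate filament gene Vim rose by 0.33 and the collagen receptor Ddr2 by 0.30. Vim was not called by the lognormal-normal model, and the call of Ddr2 was lost in 9 alternatives, among them leaving out any 1 of the cultures. Dcn, the most abundant small proteoglycan of connective tissue, was not called, with 13.73, 13.60 and 14.06 in the cultures against 13.71, 13.98 and 14.08, although it was without naive replicate 3 (difference -0.28, adjusted p = 0.0265).

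The 4 identity genes that fell included Fbln1, a matrix glycoprotein (7.79, 9.44 and 8.12 in the cultures against 10.85, 11.17 and 11.73), which fell by 2.74. Col6a3 (8.87, 7.57 and 7.55 against 9.97, 10.83 and 11.14) also fell by 2.74. Both lay below every control array. Of the other chains of type VI collagen, Col6a1 fell by 0.57, a call that was lost without naive replicate 2, with the 60-day controls alone and with centring on reference genes. Col6a2 had a difference of -0.01 and was not called, and the mean of its probe sets was higher in the cultures (0.42). Pdgfra, the other receptor of platelet-derived growth factor, fell by 0.52, a call that was lost with centring on reference genes.

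**Figure D1:**
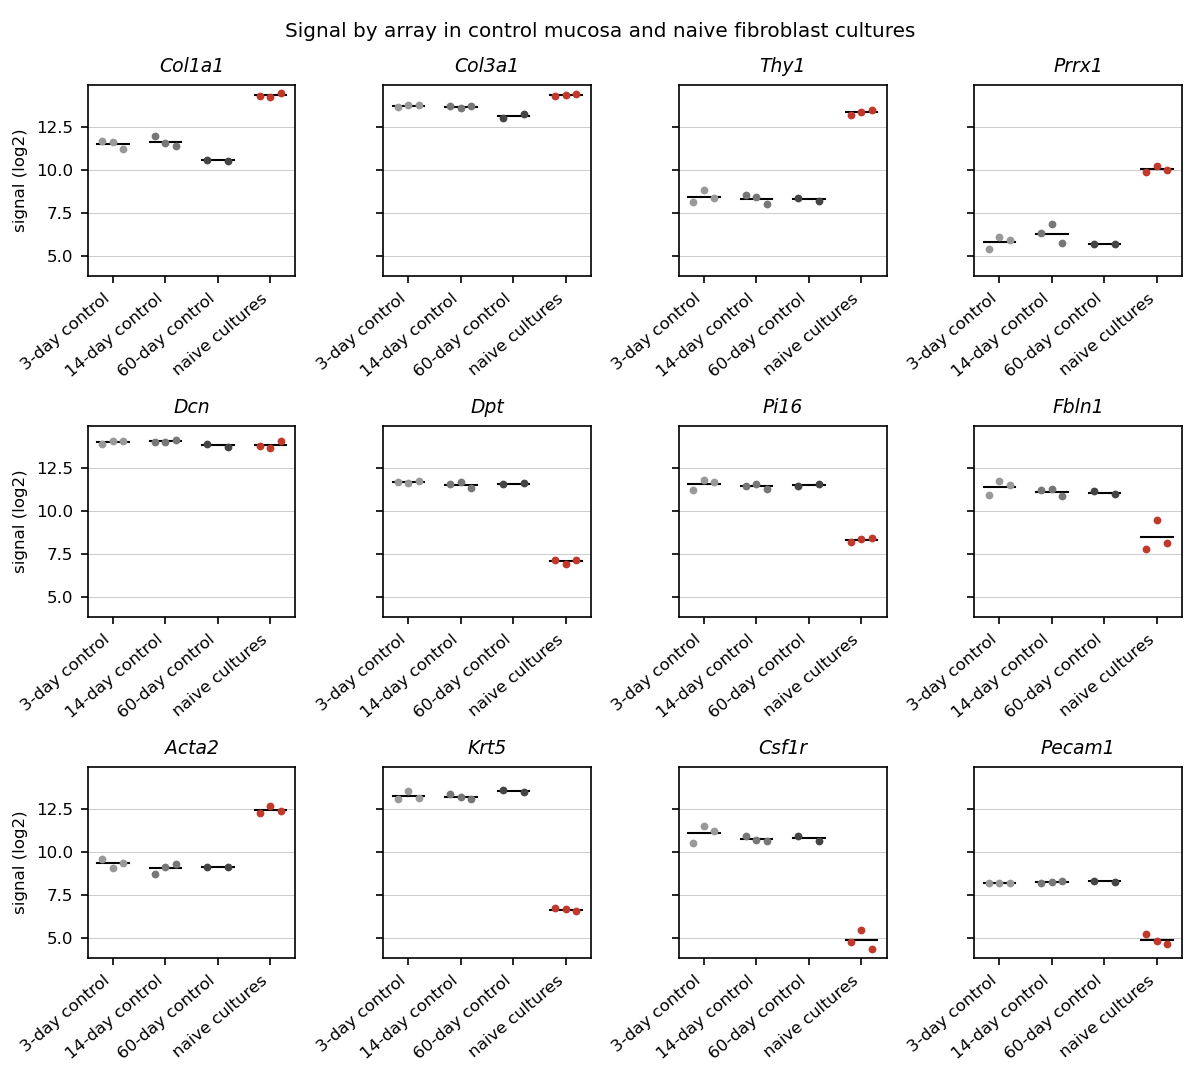
Log2 signal (vertical axis) of 12 genes on each array of the 3-day, 14-day and 60-day control mucosa (gray points) and of the 3 naive fibroblast cultures (red points), with black lines at the group means. Col1a1, Thy1, Prrx1 and Acta2 lay higher in all 3 cultures, Dpt, Pi16, Fbln1, Krt5, Csf1r and Pecam1 lay lower, and Dcn overlapped.

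A second list held 19 measured genes that mark fibroblasts resting in tissue. Of these, 7 were higher in the cultures, 9 were lower and 3 were not called, with 7 at least 4-fold lower and a median difference of -0.44. Abca8a, a lipid transporter, lay at 5.69, 4.60 and 5.11 against 11.13, 11.45 and 11.74 (lowest, median and highest) in the mucosa and fell by 6.27 (SE 0.19, limma adjusted p = 3.44e-11). Dpt, dermatopontin, which takes part in collagen fibril assembly, lay at 7.17, 6.93 and 7.14 against 11.33 to 11.71 and fell by 4.50. Pi16, which marks fibroblasts found in many tissues, lay at 8.21, 8.35 and 8.44 against 11.21 to 11.76 and fell by 3.15. The culture values of all 3 genes were below the whole mucosal range. Clec3b, tetranectin, fell by 3.85, and Penk, proenkephalin, by 2.54. In the other direction, Mfap5, a protein of microfibrils, rose by 1.85 to 14.74 in every culture, the top of the deposited values. C1qtnf3, a secreted protein, rose by 2.05, but its culture values of 10.82, 7.44 and 10.32 overlapped the mucosa (6.73, 7.52 and 7.91) in replicate 2. Its call was lost with the 60-day controls alone (adjusted p = 0.095, limma). Scara5, a scavenger receptor, was not called (difference -0.02).

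Of the 12 fibrillar collagen chains and chains attached to fibrils, 10 were higher in the cultures and none was lower, with a median difference of 1.60. After Col11a1, the largest rises were those of Col12a1 (9.0, 9.58 and 10.15 against 5.86 to 6.87, difference 3.20) and Col5a2 (13.78, 13.84 and 13.93 against 10.46 to 11.59, difference 2.66). The latter chain joins type I fibrils. Col5a1 rose by 1.83, Col5a3 by 1.46, Col16a1 by 1.28 and Col14a1 by 0.53. The chains found in cartilage, Col2a1 and Col11a2, were not called (-0.15 and 0.04).

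All 17 measured genes of collagen modification, secretion and cross-linking were higher in the cultures, with a median difference of 2.53, and 9 rose at least 4-fold. P4ha3, a subunit of prolyl hydroxylase, lay at 12.57, 12.81 and 12.80 against 8.07, 8.42 and 8.95 (lowest, median and highest) and rose by 4.26 (SE 0.19, limma adjusted p = 7.88e-10). Plod2, a lysyl hydroxylase, rose by 4.05, Lox, the enzyme that cross-links collagen and elastin, by 3.58, Pcolce, which aids removal of the procollagen tail, by 3.41, and Loxl2 by 3.23. Serpinh1, the collagen chaperone also called gp46, rose by 1.90 and P4hb, the other subunit of prolyl hydroxylase, by 0.26. Serpinh1 and P4hb were chosen after their values were seen. The call of P4hb was lost without naive replicate 3 and by the lognormal-normal model.

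Genes of other matrix types moved in both directions. Of 16 elastic fiber genes, 10 were higher and 4 lower. Ltbp2, a microfibril protein, rose by 3.46 (13.24, 13.34 and 13.49 against 9.65 to 10.29), and Fbln5 and Efemp2, fibulins needed for elastic fibers, rose by 2.88 and 2.85. Ltbp4, which binds latent transforming growth factor β (TGF-β), fell by 4.85 (7.79, 7.29 and 7.68 against 12.08 to 12.67). No culture value of these 4 genes overlapped the mucosa. Mfap2 and Efemp1 fell by 2.37 and 2.17. Of 23 basement membrane genes, 11 were higher and 11 lower. Those higher included Nid2 (2.92), Col4a1 (2.68) and Col4a2 (2.37). Those lower included the anchoring genes of epithelium Col17a1 (-5.43), Itgb4 (-5.01) and Lamb3 (-3.26), and Col15a1 (-4.06). Of 20 genes of proteoglycans and hyaluronan, 9 were higher and 3 lower. Bgn, biglycan, rose by 1.96. Gpc3, a glypican, fell by 4.70 by the probe set used, while its other probe set gave 0.08.

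The provisional matrix is the first matrix of a wound. Of its 13 measured genes, 9 were higher and 2 lower, with a median difference of 2.00. The CCN proteins Ccn1, Ccn4, Ccn5 and Ccn2 rose by 4.84, 4.53, 3.84 and 2.79. Tnc, tenascin C, rose by 4.05 and was highest in replicate 3 (11.06, 11.02 and 12.77 against 6.76 to 8.23). Tgfbi, a matrix protein named for its induction by TGF-β, lay at 5.99, 6.57 and 7.22 against 11.71, 12.03 and 12.23 (lowest, median and highest) and fell by 5.41 (SE 0.20, adjusted p = 1.31e-10, limma). All 3 of its culture values were below the mucosa. Of 25 proteases and inhibitors, 18 were higher, such as Mmp23 (2.95), Adamts1 (2.72) and the inhibitor Timp1 (2.32), and 5 were lower. Among those lower were Mmp12 (-5.85) and Mmp9 (-2.71), metalloproteinases of macrophages and neutrophils, and Plau (-2.63), the urokinase.

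Of 29 genes of stress fibers and myofibroblasts, 26 were higher, 2 were lower and 1 was not called, with a median difference of 1.61, and 11 rose at least 4-fold. Acta2, the smooth muscle actin that marks myofibroblasts, lay at 12.24, 12.63 and 12.36 against 8.74, 9.10 and 9.59 (lowest, median and highest) and rose by 3.25 (SE 0.15, limma adjusted p = 1.18e-09). Tagln, an actin-binding protein, lay at 14.03, 14.27 and 14.10 against 10.11 to 10.60 and rose by 3.74. Cnn1, calponin, lay at 9.80, 10.39 and 10.05 against 6.92 to 7.97 and rose by 2.76. The groups did not overlap for these genes. Cdh2, a cadherin, rose by 4.24. Cald1, caldesmon, rose by 3.35, but the lowest of its 3 probe sets gave -0.12. The 2 that fell were Cav1, a protein of caveolae (0.59), and Tagln2 (0.28), whose call was lost under 7 alternatives, among them without any 1 of the cultures. Among the actins, Actg2, of enteric muscle, rose by 2.13 and the cytoplasmic Actg1 by 0.30, whereas Acta1, of skeletal muscle, fell by 4.21.

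TGF-β, activin and BMP proteins are secreted signals of connective tissue, held back by binding proteins. Of 21 genes of these pathways, 14 were higher and 4 lower, with a median difference of 1.55. Besides Grem1, Inhba, which forms activin A, lay at 12.83, 12.91 and 12.83 against 7.97 to 9.21 and rose by 4.41. Fstl3, a binding protein of activin, rose by 3.65, the ligand Tgfb2 by 2.36 and Nog, a BMP antagonist, by 2.35. Bmp7 fell by 2.88 (6.11, 7.12 and 6.89 against 9.35 to 9.77). No culture value of Inhba or Bmp7 overlapped the mucosa. Of 19 growth factors and receptors of mesenchyme, 14 were higher and 3 lower, with Vegfc (3.20), Hbegf (2.99) and Fgf10 (2.63) among those that rose.

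**Figure D2:**
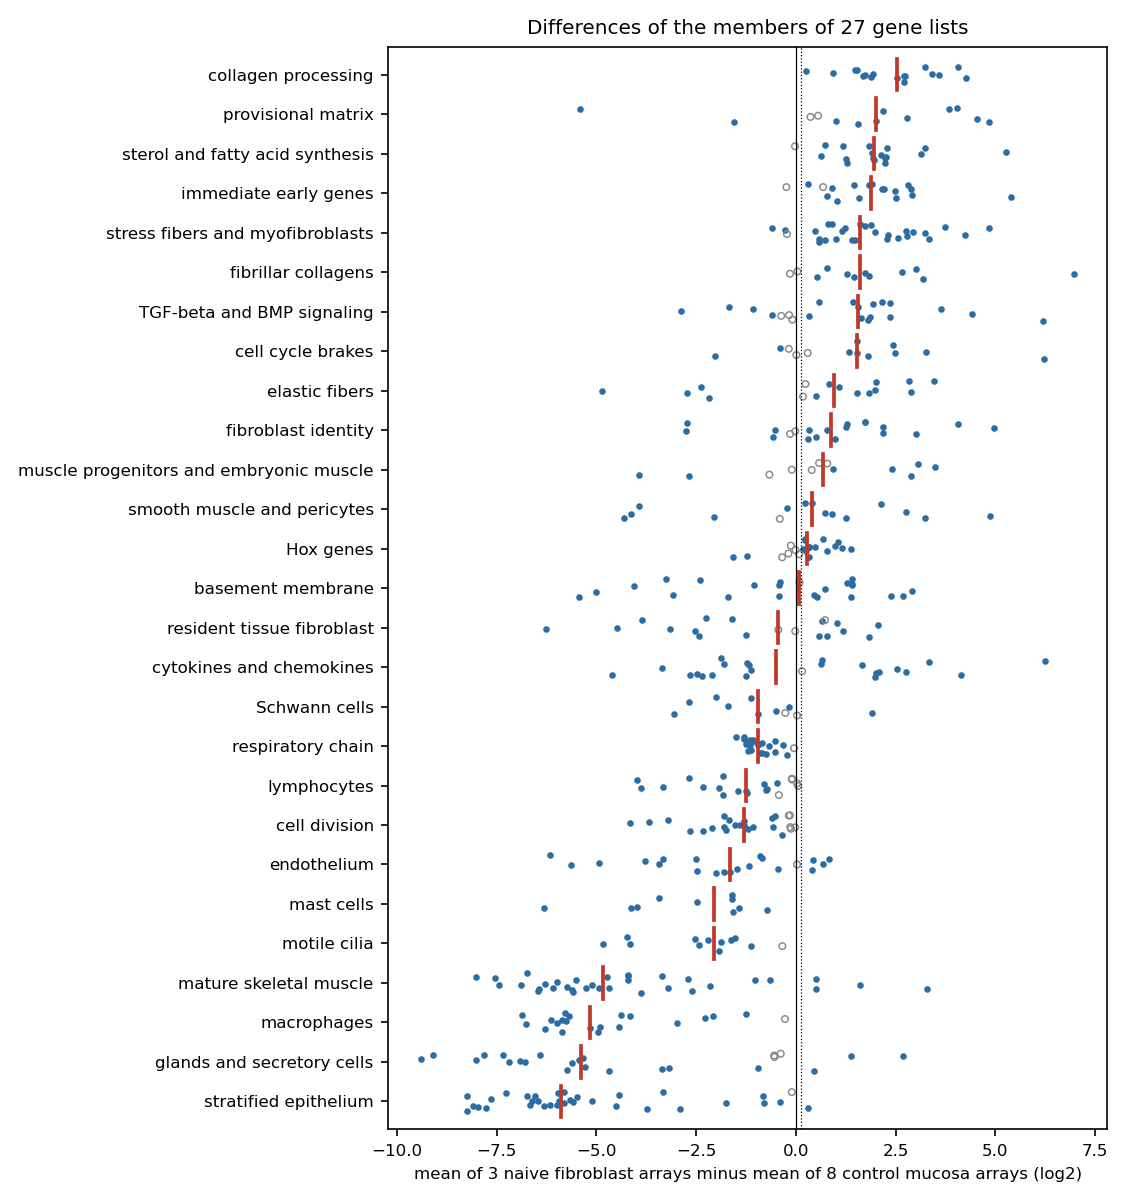
Difference of each measured gene (horizontal axis, mean log2 signal of 3 naive fibroblast arrays minus that of 8 control mucosa arrays) in 27 gene lists, with filled points for genes called by limma, open points for others, a red line at each list's median and a dotted line at the median of all genes (0.14). List medians ran from -5.89 for stratified epithelium to 2.53 for collagen processing.

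Genes of stratified epithelium had the lowest median of the lists drawn, -5.89. Of 34 measured, 32 were lower and 28 at least 4-fold lower. Krt5, a keratin of basal cells, lay at 6.74, 6.68 and 6.54 against 13.04, 13.25 and 13.55 (lowest, median and highest) and fell by 6.62 (SE 0.12, limma adjusted p = 3.71e-13). Its partner Krt14 fell by 5.96 and Krt15 by 7.78. Cdh1, E-cadherin, lay at 4.47, 4.05 and 4.56 against 12.24 to 12.44 and fell by 7.96, while its other probe set gave -0.11. All culture values of Krt5 and Cdh1 lay below the mucosa. The gene that was higher was loricrin (0.29), a call lost in 4 alternatives, among them without naive replicate 1. Krt7, a keratin of simple epithelium, fell by 1.74 and kept signals of 8.41, 9.09 and 8.71.

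Motile cilia move mucus over the airway epithelium. Of 12 measured genes of cilia, 11 were lower, 6 of them at least 4-fold, and 1 was not called. Tppp3 fell by 4.84, Dynlrb2, a dynein chain, by 4.24 and Ak7, an adenylate kinase of cilia that was at the trp level in the cultures, by at least 3.88. Foxj1, the transcription factor of ciliated cells, fell by 1.53. In the mucosa, 60-day control replicate 2 was the highest for Dynlrb2, Ak7 and Foxj1. Of 24 gland and secretory genes, 18 were lower and 3 higher, and the median difference was -5.39. Muc5b, a gel-forming mucin, lay at 7.02, 6.63 and 6.66 against 11.40, 12.38 and 12.85 and fell by 5.43. Scgb3a1, a secretoglobin, fell by 7.34 and Cyp2f4, a cytochrome of club cells, by 7.82. The 3 that rose were Klk1, a kallikrein (7.61, 5.23 and 8.85 against 4.20 to 4.89, difference 2.68), Slpi, a protease inhibitor (12.97, 14.08 and 13.34 against 10.45 to 13.27, difference 1.38), and Tff3 (0.46). The call of Slpi was lost without naive replicate 2, with the 60-day controls alone and by the lognormal-normal model. That of Klk1 was lost with the 60-day controls alone (adjusted p = 0.0537, limma).

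Skeletal muscle lies beside the mucosa, and its genes gave high signals in the control arrays. Of 34 genes of mature muscle, 30 were lower in the cultures and 4 higher, with a median difference of -4.84. Ckm, muscle creatine kinase, lay at 6.16, 5.07 and 7.51 against 13.75, 14.34 and 14.43 (lowest, median and highest) and fell by 8.01 (SE 0.36, limma adjusted p = 9.08e-10). Myh4, a fast myosin heavy chain, fell by 7.54, Mb, myoglobin, by 7.43, Tnni2, a fast troponin, by 6.88 and Tcap, a protein of the Z disc, by 6.75. The lowest mucosal value of Ckm, Mb, Tnni2 and Tcap was that of 3-day control replicate 2. The 4 higher genes were Tnnc1, the troponin C of slow and cardiac muscle (3.29), Tnni1 (1.60), Casq2 (0.51) and Myh7 (0.50). The call of Casq2 was lost in 14 alternatives, that of Tnni1 with the 60-day controls alone (adjusted p = 0.0961, limma) and that of Myh7 in a fit of all 36 arrays (adjusted p = 0.17). With the 60-day controls alone, 2 genes of the list were higher.

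Some genes of muscle progenitors and of embryonic muscle also gave signals in the cultures. Of 12 measured, 5 were higher in the cultures, 2 were lower and 5 were not called. Myh3, the embryonic myosin heavy chain, lay at 9.95, 7.46 and 11.63 in the cultures against 6.02, 6.17 and 6.51 in the mucosa and rose by 3.48 (SE 0.59, limma adjusted p = 0.000156). Mymk, the fusion protein of myoblasts, lay at 8.48, 5.67 and 9.86 against 4.81, 5.13 and 5.30 (difference 2.89, SE 0.59). Neither gene overlapped the mucosa, but in replicate 2 Mymk was close to it. The call of Mymk was lost with the 60-day controls alone (adjusted p = 0.0788, limma). Tnnt2, of embryonic and cardiac muscle, rose by 3.07 (9.68, 9.30 and 10.37 against 6.19 to 7.24), although its other probe set gave 0.09. Ncam1 rose by 2.42 and Chrng, the fetal subunit of the acetylcholine receptor, by 0.94. Des, desmin, fell by 3.94, and Myh8, the perinatal myosin, by 2.69.

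The transcription factors of muscle differentiation divided the cultures. Myog, myogenin, lay at 9.15, 5.97 and 9.98 against 7.21, 7.84 and 8.10 in the mucosa. It was above every control array in replicates 1 and 3 and below every control array in replicate 2, and was not called (0.58, adjusted p = 0.395, limma). Myod1 had the same order (7.36, 4.66 and 7.82 against 5.14 to 6.39) and was not called. Without naive replicate 2, 8 genes of the list of progenitors and embryonic muscle were higher and 2 lower. Without replicate 3, 5 were higher and 3 lower. Replicate 3 was above replicate 1 and replicate 1 above replicate 2 in 35 of the 46 genes (76.1%) of the 2 muscle lists, against 18.1% of all genes. Some other lists also exceeded that share, with 52.9% of collagen processing, 52.2% of basement membrane and 50% of motile cilia genes. Others were below it, such as stress fiber genes with 6.9%. This order is that of Myog and Myod1, which belong to these lists, and the genes are not independent replicates. The range over the 3 cultures reached 2 log2 units in 19 of these 46 genes (41.3%) and in 67 of all genes (0.471%). The part of muscle cells in the other differences was not tested.

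**Figure D3:**
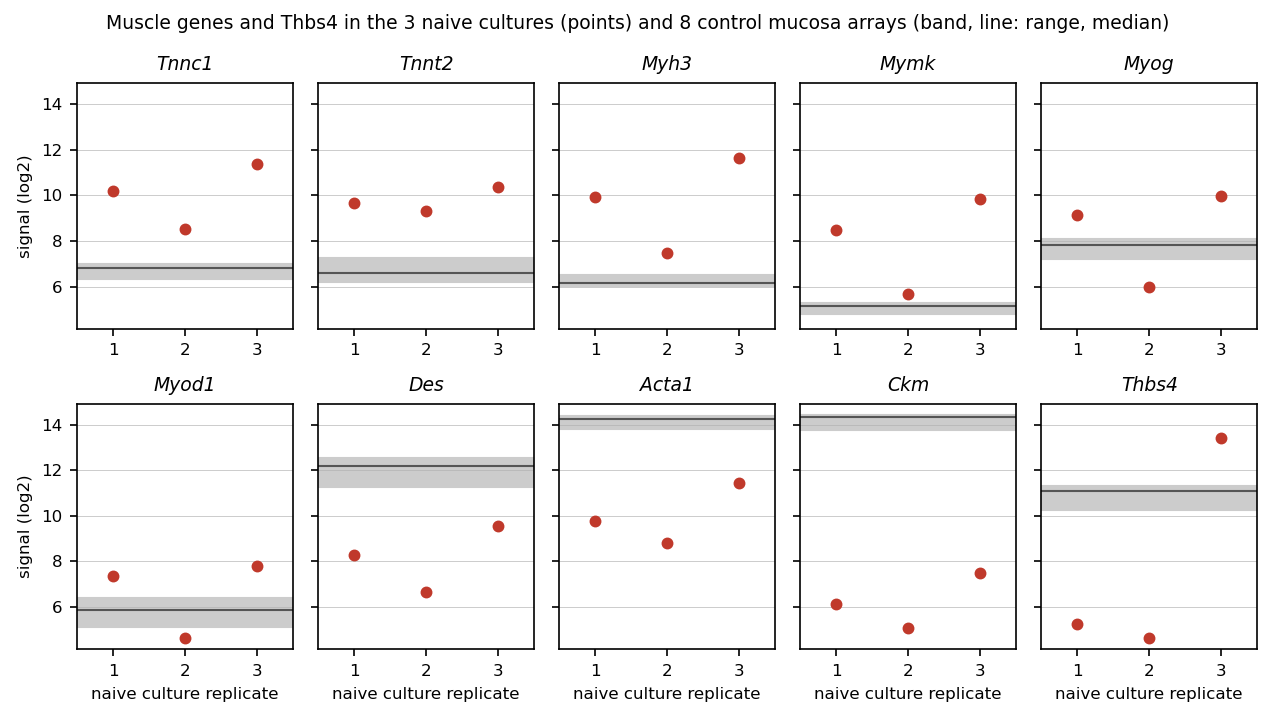
Log2 signal (vertical axis) of 9 muscle genes and Thbs4 in naive culture replicates 1 to 3 (points), with the range of the 8 control mucosa arrays as a gray band and their median as a line. Replicate 2 had the lowest signal of every gene shown, and Thbs4 was 13.39 in replicate 3 against 5.26 and 4.65.

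The widest range among the cultures, over all genes, was that of Thbs4, a thrombospondin of tendon and muscle, with 5.26, 4.65 and 13.39. The mucosa lay at 10.26, 11.11 and 11.29 (lowest, median and highest), between replicate 3 and the others. Mstn, myostatin, an inhibitor of muscle growth, lay at 4.53, 3.99 and 9.37, Meox2, a mesodermal transcription factor, at 4.37, 3.89 and 8.37, and Tnmd, a gene of tendon, at 5.52, 5.18 and 8.12. In these 4 genes replicate 3 was the highest and replicates 1 and 2 lay below the lowest control array. Thbs4 and Meox2 were called lower in the cultures (adjusted p = 0.0456 and 0.047, limma), and these calls were lost in 12 and 14 alternatives, among them without naive replicate 1 or 2. Thbs4, Mstn and Tnmd were chosen after their values were seen. A range of 2 or more was rare over all genes (67, or 0.471%). Among fibroblast identity genes, fibrillar collagens and stress fiber genes none had it, near that share. Among resident tissue fibroblast genes and among proteoglycan genes 1 each had it (C1qtnf3, range 3.38, and Aspn, 3.11).

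Most genes of macrophages, lymphocytes and mast cells were lower. Of 21 macrophage genes, 20 were lower, 19 at least 4-fold, and the median difference was -5.17. Csf1r, the receptor on which macrophages depend, lay at 4.78, 5.49 and 4.34 against 10.49, 10.79 and 11.48 (lowest, median and highest) and fell by 6.0 (SE 0.24, limma adjusted p = 2.96e-10). Ptprc, CD45, the common surface protein of leukocytes, lay at 4.19, 3.69 and 3.62 against 9.74 to 10.80 and fell by 6.29. Cd68 and Cd163 fell by 4.39 and 4.45. The median signal over the macrophage list lay at 6.09 to 6.26 in the cultures and 10.53 to 11.74 in the mucosa. Of 8 major histocompatibility complex class II genes, 7 were lower, such as the invariant chain Cd74 (-7.45). RT1-Ba was higher by the probe set used (0.24), a call lost without naive replicate 1, and lower by that of highest mean (-6.33). Of 20 lymphocyte genes, 15 were lower, among them the T cell receptor complex genes Cd3e (-2.33), Cd3g (-2.67) and Cd3d (-1.45). All 10 mast cell genes were lower, among them Mcpt1 (-6.31) and Cpa3 (-3.98). Of 7 neutrophil genes, 2 were higher and 3 lower, and S100a9 fell by 2.74. Neither higher call held without naive replicate 2 or with the 60-day controls alone, 1 was left without naive replicate 3, and 2 genes were lower without any 1 of the cultures.

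Of 21 endothelial genes, 16 were lower and 4 higher. Pecam1, an adhesion protein of endothelium, lay at 5.26, 4.81 and 4.67 against 8.17, 8.21 and 8.32 and fell by 3.32 (SE 0.10, limma adjusted p = 3.01e-11). Lyve1, of lymphatic vessels and some macrophages, fell by 6.17 and Emcn, endomucin, by 5.63. Those higher included Egfl7 (0.67), Erg (0.84) and Eng (0.41), of which Eng overlapped the mucosa and lost its call without naive replicate 1 or 2. Another probe set of Erg gave -0.22. Of 15 smooth muscle and pericyte genes, 9 were higher and 5 lower, with a median difference of 0.41. Among them, Rgs5 and Abcc9 fell by 4.31 and 4.14, and the integrin Itga8 rose by 4.86. Of 11 Schwann cell genes, 8 were lower, such as Sox10 (-2.68), and of 14 fat cell genes, 7 were lower, such as Fabp4 (-6.64) and Cd36 (-5.68), while Adipoq, the adipocyte hormone, was not called. Of 13 cartilage genes, 2 were higher, among them Col11a1, and 5 were lower (3 without naive replicate 2 or 3), such as Col9a3, a collagen of cartilage (-3.70). Of 9 thyroid genes, 2 were higher (1 without naive replicate 2) and 5 were lower, such as Nkx2-1, a transcription factor of thyroid and airway epithelium (-4.77). Of 6 red blood cell genes, 3 were higher and 3 lower, among them Hbb, a hemoglobin chain (-4.94).

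Genes of cell division are switched on together before mitosis, and the promoters of many carry TTTGAA, a form of the cell cycle genes homology region. Of 25 such genes, none was higher in the cultures, 20 were lower and 5 were not called, and the median difference was -1.31. Aurkb, a mitotic kinase, lay at 5.43, 5.33 and 5.79 against 9.19, 9.65 and 10.55 (lowest, median and highest) and fell by 4.17 (SE 0.22, limma adjusted p = 5.04e-09). Mki67, the proliferation antigen, lay at 4.55, 4.23 and 4.95 against 7.83 to 8.78 and fell by 3.69. Cenpf, a kinetochore protein, lay at 6.17, 6.38 and 5.95 against 9.02 to 9.62 and fell by 3.20. All culture values of these genes lay below the mucosa. Ccna2, cyclin A, fell by 2.67. Top2a, a topoisomerase chosen after its values were seen, fell by 2.11, and its other probe set gave -0.42. Plk1, a mitotic kinase, was not called (-0.14). DNA replication genes were divided, with 6 of 20 higher, such as Rrm1 (2.07) and Ccne1 (1.64), and 8 lower, such as Lig1 (-1.16) and Pola1 (-0.99). Of 13 genes that restrain the cell cycle, 8 were higher and 2 lower. Cdkn2a lay at 11.79, 11.56 and 11.83 against 5.20 to 6.08, and its neighbor Cdkn2b at 10.49, 10.30 and 10.46 against 6.83 to 7.70 (difference 3.26). Gdf15 and Gadd45a, genes of stress, rose by 2.50 and 2.43, and Cdkn1c fell by 2.04.

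The RefSeq promoters of 21 of the cell division genes were searched for TTTGAA on both strands, from 250 bases before to 50 bases after the start. It was found in 15 of 21 (71.4%), in 18.1% of all 27457 promoters and in 12.3% of the 11734 promoters of genes tested. CCAAT, a frequent promoter motif, was found in 17 of 21 (81%) and in 37.7% of all. A match is a description of the sequence and not a measured binding site. The promoters of 3 genes that fell are shown as examples, in the direction of transcription, with matches to TTTGAA on either strand in capitals. That of Mki67 is on the minus strand at chr1:199952544-199952843 of the GRCr8 build, with matches that begin 117 and 99 bases before the start. That of Cenpf is on the minus strand at chr13:103760837-103761136, with a match that begins at base 3 of the transcript. That of Top2a is on the minus strand at chr10:84473044-84473343, with a match on the other strand that begins 22 bases before the start.
Mki67: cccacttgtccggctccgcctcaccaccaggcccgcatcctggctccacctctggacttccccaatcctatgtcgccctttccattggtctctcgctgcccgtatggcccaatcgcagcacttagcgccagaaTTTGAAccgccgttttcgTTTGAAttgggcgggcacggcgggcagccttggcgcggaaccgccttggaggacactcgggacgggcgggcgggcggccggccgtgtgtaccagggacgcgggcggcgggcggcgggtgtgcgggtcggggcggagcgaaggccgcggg
Cenpf: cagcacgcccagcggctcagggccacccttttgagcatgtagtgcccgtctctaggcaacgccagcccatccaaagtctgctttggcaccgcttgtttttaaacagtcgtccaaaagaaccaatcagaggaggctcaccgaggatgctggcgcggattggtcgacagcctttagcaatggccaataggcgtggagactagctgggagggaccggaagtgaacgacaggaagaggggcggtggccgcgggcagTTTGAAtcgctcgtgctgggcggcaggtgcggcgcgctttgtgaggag
Top2a: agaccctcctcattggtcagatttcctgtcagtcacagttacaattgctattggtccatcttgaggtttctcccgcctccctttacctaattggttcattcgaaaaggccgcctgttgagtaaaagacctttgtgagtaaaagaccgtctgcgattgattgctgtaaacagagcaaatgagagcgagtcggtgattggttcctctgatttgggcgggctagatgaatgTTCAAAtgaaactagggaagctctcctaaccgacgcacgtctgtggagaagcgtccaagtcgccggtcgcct

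Genes of sterol and fatty acid synthesis rose together. Of 18 measured, 17 were higher and none was lower, with a median difference of 1.95. Scd lay at 11.83, 11.82 and 12.13 against 6.45, 6.65 and 6.92 (lowest, median and highest; difference 5.27, SE 0.11, limma adjusted p = 1.05e-12). Lss, lanosterol synthase, rose by 3.23, and Mvd, of the mevalonate pathway, by 3.13. Srebf2, the transcription factor that controls the pathway, was not called (-0.02). TCACNCCAC, the sterol regulatory element, was found in none of 14 promoters of this list and in 1.1% of all, and CCAAT in 11 of 14 (78.6%). Of 18 immediate early genes, which respond to serum and handling within minutes to hours, 16 were higher and none lower (1 without naive replicate 1). Fos lay at 13.71, 13.50 and 13.32 against 10.18 to 11.07 and rose by 2.91 (0.77 by its other probe set), Egr1 by 2.90, Klf2 by 2.81 (0.28 by the lowest of its 5 probe sets) and Junb by 2.51. Of the unfolded protein and amino acid stress genes, 11 of 18 were higher and 2 lower, with Trib3 (3.97) and Ddit3 (2.44) the largest.

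Cytokine genes divided, with 11 of 24 higher and 12 lower. Il6 lay at 11.21, 10.79 and 10.31 against 3.98, 4.54 and 5.25, wholly above the mucosa. Ptgs2, the inducible cyclooxygenase, rose by 4.14, Cxcl1, which attracts neutrophils, by 3.33, Ccl7, which attracts monocytes, by 2.76 and Tslp by 2.54. Those lower included Il18 (-4.62) and Cxcl13 (-3.36). Of 17 interferon response genes, 10 were lower, with Mx1 falling by 5.51, and 2 were higher. Of 11 complement genes, 7 were lower, such as Cfd (-5.09) and C3 (-4.24), and 2 were higher. Cd55, which protects cells from complement, rose by 3.89. Of 23 respiratory chain genes, 22 were lower, all by under 4-fold, with a median difference of -0.96. Sdhd fell by 1.5, and Ndufa4 was not called (-0.05). Of 18 glycolysis genes, 11 were lower, led by the muscle enzymes Pgam2 (-6.14), Eno3 (-4.73) and Pfkm (-3.40), although another probe set of Pfkm gave 0.17. Of the 34 mature muscle genes, 30 were also lower and 4 higher. The part of muscle in the falls of glycolysis and respiratory chain genes was not tested. Of 16 clock genes, 4 were higher and 6 lower. Among them, Hlf (-3.26, and -0.08 by 1 of its other probe sets) and Npas2 (-2.04) fell, and Bhlhe40 rose by 2.44. The 47 cytosolic ribosomal protein genes had a median difference of 0.04, with 9 higher and 3 lower.

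Hox genes keep a record of body position in fibroblasts. Of 22 measured, 15 were higher and 2 lower, and no difference reached 4-fold. With the 60-day controls alone 9 were higher. Hoxb3 lay at 9.77, 9.94 and 9.66 against 8.25, 8.40 and 8.55 (lowest, median and highest) and rose by 1.39 (SE 0.07, limma adjusted p = 4.53e-09). Hoxa5 rose by 1.16, Hoxb4 by 1.05, Hoxc4 by 0.98, Hoxb7 by 0.78 and Hoxd11 by 0.68. The other probe set of Hoxc4 gave -0.05. Hoxd8 lay at 6.23, 6.44 and 6.64 against 7.93 to 8.19 and fell by 1.58, and Hoxd10 fell by 1.23. For Hoxb3 and Hoxd8 the groups did not overlap. Hoxa7, Hoxa11, Hoxb2, Hoxb13, Hoxd3 and Hoxd4 were higher by 0.24 to 0.49. Among these, calls were lost without naive replicate 2 or 3 for Hoxd3, without naive replicate 1 for Hoxd4, with the 60-day controls alone for Hoxa7, Hoxd3 and Hoxd4, and in the fit of all 36 arrays for Hoxb2 and Hoxd4. Hoxa9, Hoxc8 and Hoxc9 are counted among the higher genes, but both groups lay within the range of the trp probe sets. The trp probe sets themselves were higher in the cultures by 0.14 to 0.41, and small rises of dim Hox genes were not tested against this. Hoxb6, Hoxc5 and Hoxd9 were not called, with differences of -0.34, -0.19 and 0.08, although Hoxb6 was lower without naive replicate 2 (-0.61, adjusted p = 0.00217, limma), Hoxc5 lower without 3-day control replicate 2, and Hoxd9 higher under 2 of the scalings. Hoxa10 and Hoxd1 were at the trp level in both groups. Of 18 other transcription factors of position, 13 were higher and 3 lower (1 lower without naive replicate 2 or with the 60-day controls alone). Hand2, Tbx5 and Foxf1 rose by 1.71, 1.65 and 1.58, and Pitx1 fell by 2.08.

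The same kind of contrast was made between the 4 scar fibroblast arrays and the 5 arrays of 60-day PI mucosa, none of which entered the comparison above. Here 9190 genes (64.6%) were called, 39% of all genes higher and 25.6% lower, with 465 (3.27%) at least 4-fold higher and 1072 (7.54%) at least 4-fold lower. Without 60-day PI replicate 4, 10221 genes were called. Of the genes at least 4-fold higher in the cultures, 318 were shared, 82% of those of the naive comparison and 68.4% of those of the scar comparison. Of those at least 4-fold lower, 963 were shared, 86.8% and 89.8%. Of the 12 fibrillar collagen genes 10 were again higher, and of the 17 collagen processing genes all were. Stratified epithelium and macrophages had 31 of 34 and 19 of 21 genes lower. Cell division differed in count: 5 of 25 genes were lower and 2 higher in scar cultures, with a median difference of -0.21, against 20 lower in the naive comparison. The test of the difference between the comparisons called none of these 25 genes. As it called only 0.134% of all genes, this does not decide whether they differ. Muscle genes varied among scar cultures too, and Myh3 ranged from 6.30 to 13.34 and Myog from 5.85 to 12.20.

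The culture-to-mucosa difference itself differed between naive and scar arrays for 19 genes (0.134%), in a fit of the naive, 60-day control, scar and 60-day PI arrays. Of these, 13 had the lower value in the naive comparison. Tgfbi fell by 5.40 in naive cultures against the 60-day controls and by 2.85 in scar cultures against PI mucosa, a difference of -2.56 (SE 0.40, adjusted p = 0.0339, limma). The scar arrays lay at 7.99, 8.90 and 9.08 (lowest, median and highest), above the 3 naive arrays and below the PI mucosa (11.40 to 11.71). Cnn1 was higher by 2.88 in naive and by 5.10 in scar cultures (difference -2.22, SE 0.36, adjusted p = 0.0361). Its scar arrays lay at 11.67, 11.86 and 12.37, above all naive arrays. Krt7 was 2.25 lower in naive cultures (log2 difference -2.25) and not called in scar cultures (0.50), a difference of -2.75 (SE 0.44, adjusted p = 0.0339). Ltbp2 and Nog had differences of -1.04 and -1.49 (adjusted p = 0.0298 and 0.0423). These 5 genes were chosen for their known roles after their values were seen. The count was 5 with a replicate block, 7 with centring on reference genes, 0 to 95 when single arrays were left out (0 without naive replicate 2, 95 without scar replicate 4, 88 without 60-day PI replicate 4) and 266 in a fit of all 36 arrays. Each of the 5 genes lost its call when either 60-day control array was left out.

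**Figure D4:**
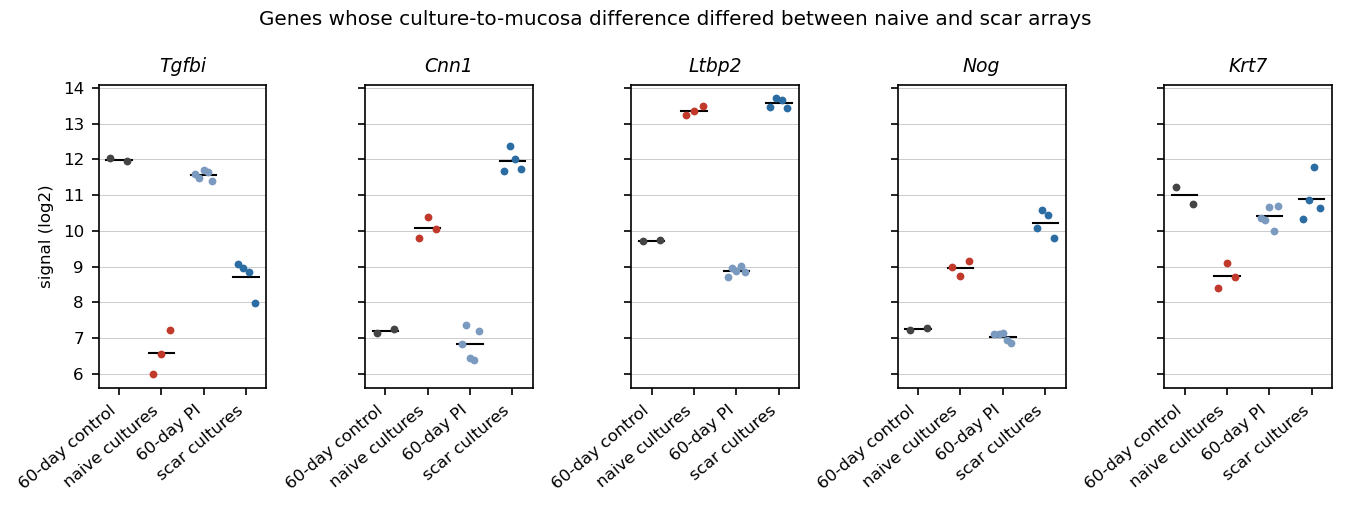
Log2 signal (vertical axis) of 5 genes on each array of 60-day control mucosa, naive cultures, 60-day PI mucosa and scar cultures, with black lines at group means. Cnn1 lay at 9.80 to 10.39 in naive and 11.67 to 12.37 in scar cultures, and Tgfbi at 5.99 to 7.22 and 7.99 to 9.08.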

How the data were processed

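RNA was hybridised to Affymetrix rat expression arrays, and the deposited values are log2 signals that the authors made by RMA over all 36 arrays, which background-corrects, quantile-normalises and summarises probes to probe sets. The quantile step gives all arrays almost the same distribution (sorted values differed by up to 0.03), so a difference is relative to the other genes of an array. No further normalisation was applied, and the number of arrays limits the precision. Each array's group was taken from its labels. Of 31099 probe sets, 20826 had 1 gene symbol in the platform annotation, 436 had several and 9837 had none. For each of 14217 genes the probe set of median mean signal was used.

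Naive fibroblasts were compared with control mucosa by limma 3.58.1 in R 4.3.3 (lmFit and eBayes, Benjamini-Hochberg adjustment over all genes, called at under 0.05), tested on simulated data. Scar fibroblasts against 60-day PI mucosa, and the difference of the comparisons, were fitted likewise. The limma p-values set a difference of means against 1 variance a gene, taken as equal in cultures of 1 rat and pools of 4 rats. This variance is not the spread between animals. Control probe sets were compared by an exact permutation test. Alternatives were other scalings, probe set rules, filters and weights, a lognormal-normal model (posterior over 0.95), a replicate block, other control arrays and leaving out each array. The members and the 50 gene lists were chosen with earlier results of these data known. Of 880 list entries, 125 matched no gene tested. Named are the 12 largest called rises and falls whose groups were separate, for each list at most 5 members called in either direction and 2 that were not, the first 3 of each cell type list, and all fibroblast identity, fibrillar collagen, actin and Hox genes.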

Additional observations from a re-analysis of the deposited data

Results flagged for a closer look

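A search for single distant arrays made 255 tests of a gene within a group. The groups were the 8 control arrays and, for named genes of the difference test, the scar cultures and the 60-day PI mucosa. In 23 tests 1 array lay at a distance from the others, where chance gives about 1 in 20. All of these were in control mucosa, where most of the tests were made, so the groups cannot be compared by this search. Arrays of 1 pool stood out together for muscle genes: 3-day control replicate 2 was the lowest for Acta1 (13.79), Ckm (13.75), Tnni2 (13.6), Mb (13.5), Tcap (12.49), Pgam2 (12.05), Des (11.26) and Myh7 (3.5), and the highest for Hoxd8 (8.19). Another pool, 60-day control replicate 2, was the highest for the cilia genes Dynlrb2 (12.52), Foxj1 (10.02) and Ak7 (9.34), and for Aurkb (10.55) and Fosb (7.88). In 60-day control replicate 1, Junb was the highest (10.27) and Thbs4 (10.26) and Col16a1 (9.29) the lowest. In 3-day control replicate 1, Trib3 (7.11) and Hand2 (7.08) were the highest and Cdh2 (4.42) the lowest. Ccn4 (6.46) was the highest in 14-day control replicate 1, and S100a4 (11.92) and Tbx5 (6.88) were the lowest in 14-day control replicate 3.

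The culture-to-mucosa difference was tested between the naive and the scar arrays by limma, and 5 of the genes past the threshold are named in the text. The difference was -2.75 for Krt7, -2.56 for Tgfbi, -2.22 for Cnn1, -1.49 for Nog and -1.04 for Ltbp2.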

How the results depend on the processing

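The counts of the naive and the scar comparison stayed within 1.5 times the reported ones except with all 31042 probe sets tested, a larger number of features, which gave 21710 called (13684 higher, 8026 lower; 733 and 1686 at least 4-fold) and 18747 called (11612 and 7135; 809 and 1666). With single arrays left out, the naive comparison called 9863 to 10685 genes (5916 to 6356 higher, 3947 to 4329 lower; 380 to 400 and 1081 to 1130 at least 4-fold) and the scar comparison 8444 to 10221 (5076 to 6092, 3368 to 4129; 451 to 470 and 1059 to 1091). The difference between the comparisons, called for 19 genes (1324 at an unadjusted p under 0.05), was called for 0 to 95 in this way, for 7 with centring on reference genes and for 266 in a fit of all 36 arrays, chosen after seeing the data; the cause was not tested. Same-numbered naive and control arrays had r of -0.04 to 0.09 between their deviations from the group means. Scar and 60-day PI arrays were not compared in this way, so a pairing by number was not excluded. A replicate block gave 10580 called genes in the naive comparison, 8089 in the scar comparison and 5 for the difference. With probe sets averaged, the difference was 0.42 for Col6a2, 0.18 for Srebf2 and -1.44 for RT1-Ba (-6.33 with the probe set of highest mean). Small list medians changed sign: basement membrane to -0.39 without the lowest 30% of genes and -0.023 with 60-day controls alone, IGF binding proteins to between 0.007 and 0.181 (0.008, 0.055, 0.071, 0.076; -0.067 to 0.071 with single arrays left out), DNA replication to 0.027, 0.092 and 0.133, reference genes to 0.012, 0.016, 0.066 and 0.171 (-0.048 to 0.012 with single arrays left out), red blood cells to 0.003, tropomyosin and troponin to -0.19 and -0.47, and ribosomal proteins to -0.010. Other counts that moved by over 1.5 times were, with the 60-day controls alone, those of IGF (2 lower), cartilage (3 lower), gland (1 higher), thyroid (1 higher) and neutrophil and loricrin or RT1-Ba calls (0 higher), and, with centring on reference genes, those of fibroblast identity (2 lower), DNA replication and antioxidant genes (5 lower each), thyroid (3 lower), fat (3 higher), and stress fibers, cell cycle brakes, unfolded protein and ribosomal genes (1 lower each). Other scalings moved the median of all genes from 0.14 to between 0.216 and 0.333. With centring on reference genes, 2850 genes were called lower in the naive comparison against 4272 reported, only just within 1.5 times.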

Other observations

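Other gene groups moved in both directions. Of 11 genes of insulin-like growth factors (IGF) and their binding proteins, 4 were higher in the cultures and 5 lower, with Igf2r (1.10) the largest rise and Igf1 (-1.21) the largest fall. Of 20 antioxidant genes, 8 were higher and 8 lower. Hmox1, heme oxygenase, rose by 1.96, and Gpx2, a glutathione peroxidase of epithelium, fell by 6.89. Of 11 genes of chemosensory and neuroendocrine cells, 4 were higher and 6 lower, with Uchl1, a ubiquitin hydrolase of neurons, rising by 4.65 and Calcb, a calcitonin gene-related peptide, falling by 6.05. Of 12 tropomyosin and troponin genes, 7 were higher, such as Tpm2 (2.31) and Tpm1 (1.49), and 4 were lower, such as Tnnc2 (-5.73) and Tnnt3 (-5.62). Of 9 reference genes used for scaling, 2 were higher and 2 lower, such as Hprt1 (1.65) and Sdha (-1.16), and 1 was higher without naive replicate 1 or 2.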
